A study of Drosophila melanogaster with 6 samples.

Results

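The neuronal genes described here are elav, Appl, brp, futsch, para, Syn and Csp, chosen by gene symbol, and all 7 were found among the 15741 entries of the expression table. They were followed through RNA of whole Drosophila melanogaster larvae, wandering and in the last instar, raised at 25 °C. Each of 6 libraries came from a pool of more than 20 animals, and each combination of genotype and stage has 1 library. The wild-type larvae are described by no further allele in the labels. The other larvae expressed a short hairpin RNA from the GawB69B Gal4 driver, either against Cmi (gene Lpt) or against Trr (gene trr), which belong to one COMPASS-like histone methyltransferase complex acting on enhancers. The labels do not say whether wild type carried the driver, nor in which cells of the larva it is active. At the blue gut stage larvae are early in wandering, and at the clear gut stage they are close to forming the puparium.

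Neurons are a small part of a whole larva, housed in the brain, the ventral nerve cord, sense organs and the differentiating eye discs. They send signals along axons with voltage-gated sodium and potassium channels, and pass them on at synapses where calcium makes vesicles fuse at active zones. The 7 genes cover these steps. The gene elav encodes an RNA-binding protein that sets neuron-specific splicing and 3′ end choice and is the standard marker of fly neurons, and Appl encodes the fly relative of the amyloid precursor protein. The gene futsch encodes a large microtubule-associated protein of axons and nerve terminals, and para the pore-forming subunit of the voltage-gated sodium channel. The gene brp encodes Bruchpilot, a scaffold of the active zone, Syn encodes synapsin, which clusters synaptic vesicles, and Csp encodes the cysteine string protein, a chaperone on synaptic vesicles.

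The genes lie at separate places on dm6, with 4 of the 7 on the X chromosome, against 15.7% of the 13242 table entries with a chromosome in the annotation. The gene elav (FBgn0260400, X, 509235 to 523226, minus strand) and Appl (FBgn0000108, X, 530501 to 579044, plus strand) are separated by 7274 bases. Also on X are futsch (FBgn0259108, 1409069 to 1453686, plus) and para (FBgn0285944, 16455027 to 16533096, minus). The gene brp (FBgn0259246) spans 9503765 to 9541565 on 2R, Syn (FBgn0004575) 10190689 to 10222442 on 3R and Csp (FBgn0004179) 22267382 to 22273745 on 3L, all on the plus strand.

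The members are long genes. The length given in the table is 20736 bases for futsch, 11661 for brp, 11483 for para, 10229 for elav, 6355 for Appl and 5819 for Syn, and these 6 are longer than 94.8% to 99.9% of all entries. Csp, at 2895 bases, is longer than 77.7%. Exons of 3 members share bases with a protein-coding neighbour, namely elav with arg on the opposite strand (673 bases), Syn with Timp on the opposite strand (249 bases) and futsch with Gr2a on the same strand (1186 bases). The elav exons also share 2994 bases with the noncoding gene lncRNA:enrr on the same strand. Whether reads were counted by strand is not given in the sources used here, so the values of these genes and of their neighbours are uncertain to that extent.

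The libraries hold 23.1 to 25.0 M reads on genes, recovered from the deposited values. The targeted gene Lpt measured 5.57 RPKM (reads scaled for gene length and for the library total) in blue gut wild type against 4.44 in blue gut Cmi depletion, and 6.66 against 5.11 at clear gut. The other target, trr, stood at 2.93 RPKM in wild type against 3.60 in the blue gut library that is labelled Trr depletion, against its label, and 6.19 and 4.76 at clear gut. The wild-type blue gut library stands apart from the other 5 by gene length. Among the 696 tested genes that are no members and at least as long as Syn it was the lowest library in 88.5%, against 35.0% of shorter genes. The median ratio of clear gut over blue gut in these long genes was 2.44 in wild type, 1.60 in Cmi depletion and 1.46 in the Trr-labelled libraries. Values of tested genes of like length therefore stand beside those of the members. Values rest on 1 library per group, so intervals of ratios are exact 95% counting intervals (Clopper-Pearson) and cover counting error only. In whole larvae, fewer neurons and less RNA per neuron cannot be told apart.

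The levels of the members differed widely in RPKM, which is scaled per length but still moved with gene length between libraries, so small differences between genes were not read. Csp was highest in every library, followed by Appl and elav, and para was lowest in every library, below futsch. Only Syn and brp changed places, with Syn above brp in 4 of the 6 libraries. Csp stood above 88.0% to 93.0% of all entries, Appl above 58.2% to 78.3% and elav above 43.1% to 64.4%. Syn and brp stood above 27.6% to 39.8%, futsch above 21.1% to 27.8% and para above 9.01% to 15.6%.

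**Figure D1:**
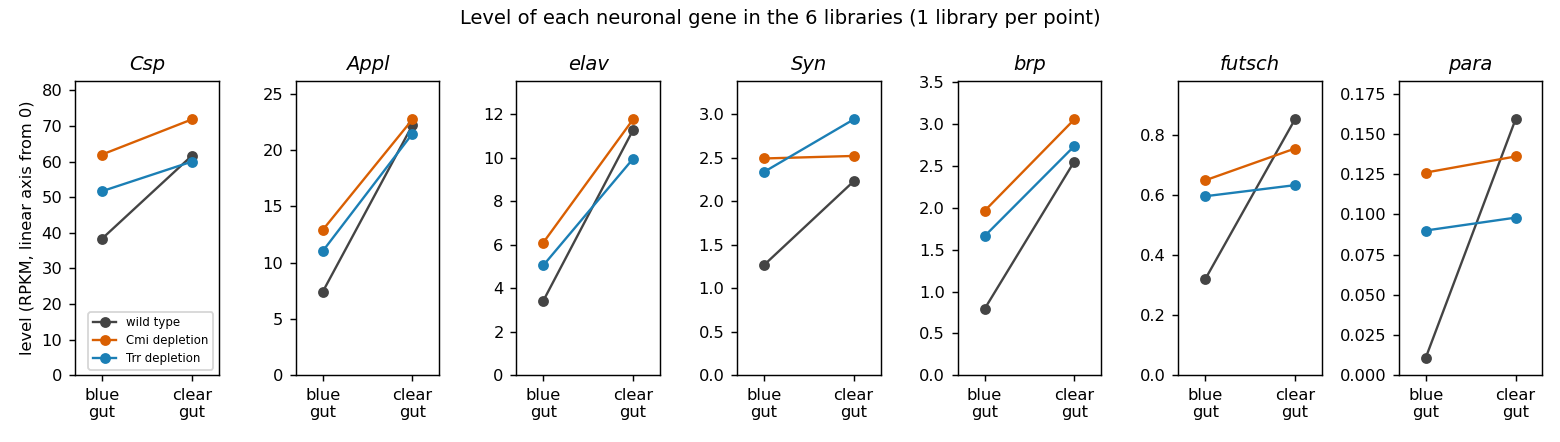
Level of each of the 7 genes in RPKM on a linear axis from 0, at blue gut and clear gut, with 1 point per library and a line for each genotype (grey, wild type; orange, Cmi depletion; blue, libraries labelled Trr depletion). Wild type at blue gut is the lowest point in all 7 panels, and in elav, Appl and brp all 3 clear gut points lie above all 3 blue gut points.

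The neuronal RNA-binding gene elav measured 3.43 RPKM in wild type, 6.11 in Cmi depletion and 5.06 in the Trr-labelled library at blue gut. At clear gut it measured 11.3, 11.8 and 9.96 RPKM. The stages did not overlap, and wild type at blue gut was lowest. The ratio of clear gut over blue gut was 3.29 (3.04 to 3.56) in wild type, 1.93 (1.81 to 2.05) in Cmi depletion and 1.97 (1.84 to 2.11) in the Trr-labelled libraries. Over the 3 genotypes elav rose with a log2 change of 1.06 (SE 0.18, limma adjusted p = 0.0160). Tested genes of 9000 bases or more, the length class of elav, had median stage ratios of 2.86, 1.67 and 1.499 in the same order. The reads behind the elav values ranged from 810 to 3012 per library.

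The paralogs of elav, which encode RNA-binding proteins of the same family, did not share 1 course. The gene fne (found in neurons) had 2.43 RPKM in wild type, 4.32 in Cmi depletion and 3.48 in the Trr-labelled library at blue gut, then 9.50, 10.3 and 8.76 RPKM at clear gut. It rose with the stage (log2 1.27, SE 0.17, limma adjusted p = 0.00908). Rbp9 had 5.24, 9.05 and 7.33 RPKM in the same order at blue gut, then 3.84, 1.75 and 6.51 RPKM at clear gut, so that each genotype had its lower value at clear gut. Limma did not call Rbp9 (log2 -0.80, SE 0.37, adjusted p = 0.167), and its stage ratio ranged from 0.194 (0.171 to 0.219) in Cmi depletion to 0.888 (0.817 to 0.965) in the Trr-labelled libraries.

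Appl, the membrane protein gene, followed elav most closely of all members, with a Pearson correlation of 0.996 over the 6 libraries. It measured 7.41 RPKM in wild type, 12.9 in Cmi depletion and 11.02 in the Trr-labelled library at blue gut, then 22.2, 22.7 and 21.4 at clear gut. The 3 clear gut values lay close together and above all blue gut values. The stage ratio was 2.997 (2.80 to 3.21) in wild type, 1.76 (1.67 to 1.86) in Cmi depletion and 1.95 (1.83 to 2.07) in the Trr-labelled libraries. Appl rose with a log2 change of 1.05 (SE 0.18, limma adjusted p = 0.0153). In its class of 6000 to 9000 bases the median stage ratios were 2.44, 1.60 and 1.45. Appl rests on 1087 to 3610 reads per library.

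The active zone gene brp measured 0.791 RPKM in wild type, 1.96 in Cmi depletion and 1.66 in the Trr-labelled library at blue gut, then 2.55, 3.05 and 2.73 at clear gut. Again the stages did not overlap. Its stage ratio was 3.22 (2.76 to 3.77) in wild type, 1.56 (1.40 to 1.74) in Cmi depletion and 1.65 (1.46 to 1.86) in the Trr-labelled libraries. Its length class is that of elav, with medians of 2.86, 1.67 and 1.499. It rose in the limma fit (log2 0.64, SE 0.17, adjusted p = 0.0449), a call near the threshold that ended with median-ratio scaling (adjusted p = 0.127) and with a pseudocount of 0.1 (adjusted p = 0.0578). The log2 scale of RPKM + 1 understates the change of a gene at this level, and on recovered reads the log2 change was 1.01 (SE 0.24, limma adjusted p = 0.0329).

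Syn, the synapsin gene, had its largest stage ratio in wild type. It measured 1.27 RPKM in wild type, 2.49 in Cmi depletion and 2.33 in the Trr-labelled library at blue gut, then 2.23, 2.52 and 2.94 at clear gut. The stages overlapped, since both depletions at blue gut lay above wild type at clear gut. The stage ratio was 1.76 (1.46 to 2.13) in wild type, 1.01 (0.868 to 1.17) in Cmi depletion and 1.26 (1.08 to 1.46) in the Trr-labelled libraries. Limma did not call it (log2 0.25, SE 0.16, adjusted p = 0.292). Tested genes of 4000 to 6000 bases, its class, had median stage ratios of 1.88, 1.47 and 1.35. Its values in Cmi depletion correspond to 341.5 and 366.5 reads at the recovered depth. The reason for values that are not whole was not tested.

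Csp, the vesicle chaperone gene, was the most abundant member, with 2564 to 5201 reads per library. Its level was 38.4 RPKM in wild type, 62.0 in Cmi depletion and 51.7 in the Trr-labelled library at blue gut, then 61.6, 71.8 and 59.98 at clear gut. The stages overlapped, with Cmi depletion at blue gut slightly above wild type at clear gut. The stage ratio was 1.61 (1.53 to 1.69) in wild type and 1.16 in each depletion (1.11 to 1.21 in both). In its class of 2000 to 3000 bases the medians were 1.19, 1.28 and 1.12. Limma did not call it (log2 0.36, SE 0.14, adjusted p = 0.113).

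The microtubule gene futsch and the sodium channel gene para averaged 0.635 and 0.103 RPKM, below the mean of 1 RPKM needed for the limma fit, so 5 of the 7 members were tested there. The level of futsch was 0.320 RPKM in wild type, 0.650 in Cmi depletion and 0.597 in the Trr-labelled library at blue gut, then 0.853, 0.756 and 0.634 at clear gut. Wild type spanned the whole range, from its lowest to its highest value. The stage ratio of futsch was 2.67 (2.21 to 3.23) in wild type. It was 1.16 (1.00 to 1.35) in Cmi depletion and 1.06 (0.902 to 1.25) in the Trr-labelled libraries. Both depletion intervals spanned 1, and they cover counting error only.

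The gene para was near the limit of detection in whole larvae. It had 3 reads in wild type, 34 in Cmi depletion and 24 in the Trr-labelled library at blue gut, then 44, 39 and 27 at clear gut. These correspond to 0.0110, 0.126 and 0.0900 RPKM and to 0.159, 0.136 and 0.0980 RPKM. As with futsch, wild type held both the lowest and the highest value. The stage ratio was 14.5 (4.49 to 70.6) in wild type, 1.08 (0.665 to 1.77) in Cmi depletion and 1.09 (0.609 to 1.98) in the Trr-labelled libraries. Both genes belong to the class of 9000 bases or more, though its tested genes have higher levels. The median stage ratios of that class were 2.86 in wild type, 1.67 in Cmi depletion and 1.499 in the Trr-labelled libraries. In a limma fit to recovered reads, which admits genes of low RPKM and called 24.0% of 12594 genes higher and 10.5% lower for the stage, neither futsch (log2 0.57, SE 0.30, adjusted p = 0.213) nor para (log2 1.29, SE 0.81, adjusted p = 0.292) was called for the stage.

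Clear gut was compared with blue gut to follow the neuronal genes through late wandering. The synaptic and neuronal genes elav, Appl and brp rose, limma thus calling 3 of the 5 members tested higher and 0 lower, where it called 24.2% of all 11467 tested genes higher and 11.1% lower. Of the 696 tested non-members at least as long as Syn, a length that 4 of the 5 tested members reach, it called 56.3% higher, so the share of members is near that of long genes. All 3 clear gut libraries lay above all 3 blue gut libraries in 3 of 7 members (elav, Appl and brp), as in 38.5% of tested genes. Every member was higher at clear gut in each genotype as deposited, as were 46.9% of tested genes in all 3 genotypes, 56.1% in wild type, 72.1% in Cmi depletion and 60.7% in the Trr-labelled libraries, but with median-ratio scaling this held only for elav, Appl and brp. The median log2 change of all tested genes was 0.15. Without the blue gut or without the clear gut wild-type library the calls of elav, Appl and brp ended. The stage change then rests on both depletions alone, with fewer residual degrees of freedom. The share of all tested genes called in these fits is not given here, so the loss is not a result about the members. The log2 change was then 0.85 for elav, 0.84 for Appl and 0.47 for brp.

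The stage ratio was larger in wild type than in either depletion in all 7 members, as in 37.0% of tested genes. At least 2-fold higher at clear gut were 5 members in wild type (elav, Appl, brp, futsch and para) and 0 in either depletion, against 19.0% of tested genes in wild type, 11.7% in Cmi depletion and 9.71% in the Trr-labelled libraries. Among the 696 long non-members these shares were 66.8%, 25.1% and 16.8%. The counting interval of wild type lay above that of Cmi depletion in all 7 members and above that of the Trr-labelled libraries in all but Syn. Over both depletions this held for 6 of 7 members and for 17.1% of tested genes. It also held for 80.0% of the 696 tested genes that are at least as long as Syn and no members. The difference between genotypes was not tested, since no group has a replicate.

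**Figure D2:**
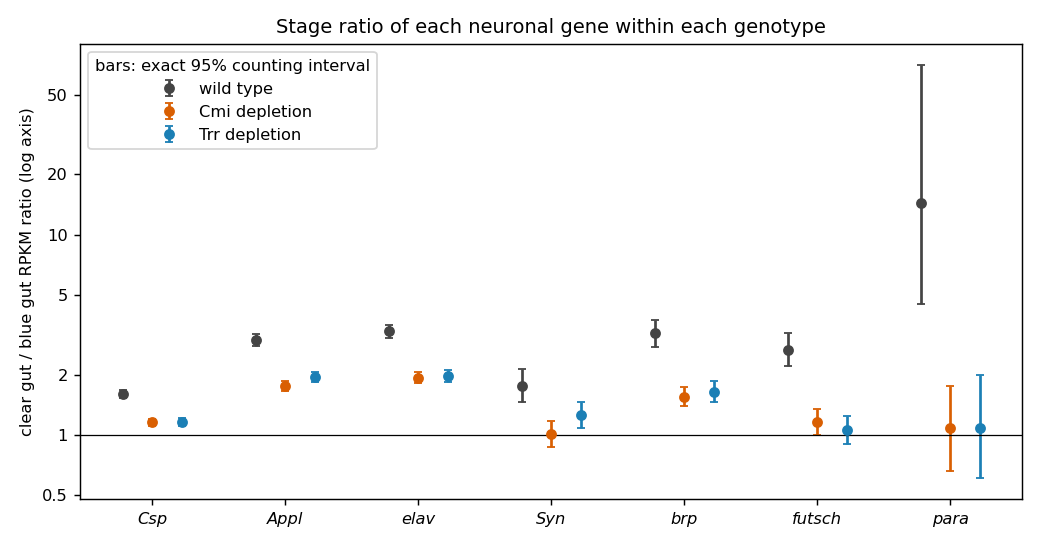
Ratio of clear gut to blue gut RPKM (log axis) for each gene within wild type (grey), Cmi depletion (orange) and the Trr-labelled libraries (blue), with exact 95% counting intervals as bars. The grey points lie between 1.61 and 14.5 and above the other points of the same gene in all 7 cases, and those of the depletions lie between 1.01 and 1.97.

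The depletions were compared with wild type to see whether the neuronal genes depend on the COMPASS-like complex. At blue gut every member was higher in both depletions, and at clear gut no member differed by 2-fold. In Cmi depletion at blue gut the ratio to wild type was 1.62 (1.54 to 1.70) for Csp, 1.74 (1.62 to 1.88) for Appl and 1.78 (1.63 to 1.94) for elav. It was 1.97 (1.63 to 2.38) for Syn, 2.03 (1.67 to 2.48) for futsch and 2.48 (2.11 to 2.92) for brp. For para, against 3 reads in wild type, it was 11.5 (3.49 to 56.5). All 7 members had an interval above 1, as had 39.3% of tested genes and 95.7% of the 696 long non-members, whose median ratio was 1.57. At least 2-fold higher were 3 members (brp, futsch and para), against 4.37% of tested genes and 10.6% of the long ones. Of these 3 only brp reached the mean of 1 RPKM that defines the tested genes. The shares therefore are no like background for futsch and para.

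In the Trr-labelled library at blue gut every ratio was smaller, with an interval above 1 in all 7 members, in 47.9% of tested genes and in 92.5% of the long ones. The ratios were 1.35 (1.28 to 1.42) for Csp, 1.48 (1.35 to 1.61) for elav, 1.49 (1.38 to 1.61) for Appl, 1.85 (1.53 to 2.24) for Syn and 1.87 (1.53 to 2.29) for futsch. For brp the ratio was 2.10 (1.78 to 2.48) and for para 8.18 (2.41 to 41.2). At least 2-fold higher were 2 members, brp and para, against 3.61% of tested genes and 5.6% of the long ones. Here too para lay below the level of the tested genes. All 7 members were higher in both depletions than in wild type at blue gut, as were 50.8% of tested genes. By at least 1.5-fold in both this held for brp, futsch, para and Syn, for 8.56% of tested genes and 39.8% of the long ones. Among the 5 members tested it held for 2, brp and Syn. Both depletions were set against the same wild-type library, so these counts are not independent of each other.

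At clear gut the ratios in Cmi depletion lay between 0.855 and 1.197, above 1 in 5 of 7 members and in 68.0% of tested genes. Only those of brp (1.197, 1.08 to 1.32) and Csp (1.17, 1.119 to 1.21) had an interval above 1, as had 44.6% of tested genes. In the Trr-labelled library they lay between 0.616 and 1.32, above 1 in 2 of 7 members and in 65.5% of tested genes, with elav (0.883, 0.836 to 0.932) and futsch (0.743, 0.641 to 0.863) below wild type and Syn (1.32, 1.14 to 1.53) above it by their intervals. Intervals lay above 1 in 41.3% of tested genes and below 1 in 20.4%, and in 16.1% and 56.2% of the long ones. A 2-fold difference was found in 0 members in either depletion. In Cmi depletion 3.89% of tested genes were 2-fold higher and 6.53% lower, and in the Trr-labelled library 4.9% and 2.02%.

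**Figure D3:**
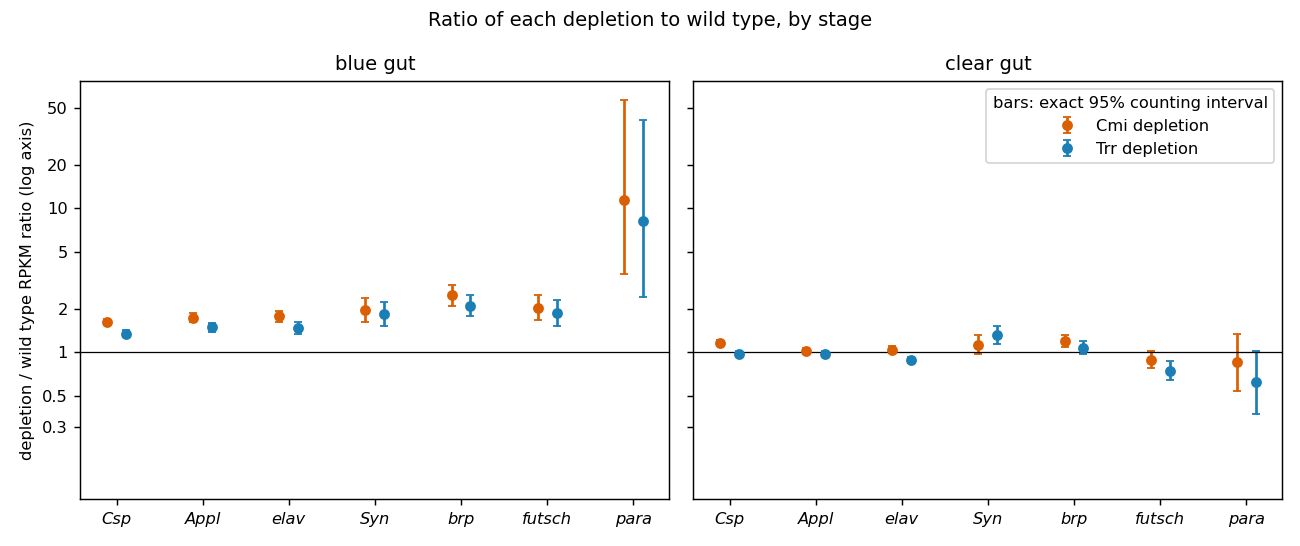
Ratio of each depletion to wild type in RPKM (log axis) at blue gut (left) and clear gut (right), for Cmi depletion (orange) and the Trr-labelled libraries (blue), with exact 95% counting intervals as bars. All points at blue gut lie above 1, from 1.35 to 11.5, and those at clear gut lie on either side of 1, from 0.616 to 1.32.

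Over both stages, limma called 0 of the 5 members tested in either depletion. Of all genes it called 0.105% in Cmi depletion and 0.0523% in the Trr-labelled libraries. At an unadjusted p below 0.05 were 0 members in each, against 781 and 789 of all 11467 tested genes. The largest mean log2 changes were 0.46 for brp in Cmi depletion (SE 0.21, adjusted p = 0.672, limma) and 0.42 for Syn in the Trr-labelled libraries (SE 0.20, adjusted p = 0.633, limma). The median over all tested genes was 0.13 and 0.15. In the limma fit to recovered reads 0 of 7 members were called in either depletion, against 0.0715% of all genes in Cmi depletion and 0.0556% in the Trr-labelled libraries. There brp in Cmi depletion (log2 0.78) and Syn in the Trr-labelled libraries (log2 0.64) had an unadjusted p below 0.05. Their limma adjusted p was 0.648 and 0.643. The share of all genes at that unadjusted p in this fit is not given here.

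Between the depletions, members were somewhat lower in the Trr-labelled libraries. The ratio of these to Cmi depletion was below 1 for all 7 members at blue gut (0.714 to 0.938) and for all but Syn at clear gut (0.721 to 0.944, with Syn at 1.17), while 58.9% and 44.5% of tested genes had a ratio above 1. The interval lay below 1 for elav, Appl, brp and Csp at both stages, with Csp at 0.834 (0.797 to 0.872) and 0.835 (0.801 to 0.870). At clear gut it also lay below 1 for futsch and above 1 for Syn. Intervals below 1 were found in 20.2% of tested genes at blue gut and 28.1% at clear gut (42.4% and 65.7% of the long ones), and intervals above 1 at clear gut in 23.4%. Limma called 0 of the 5 members tested, and 0 of all 11467 genes. At an unadjusted p below 0.05 were 0 members, against 492 of all tested genes.

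The values of the wild-type blue gut library moved with gene length, and the members with it. That library was the lowest of the 6 in all 7 members, and in 38.3% of all tested genes. Among tested genes that are no members this share was 20.9% from 1000 to 2000 bases, 45.5% from 2000 to 3000 bases, 82.2% from 4000 to 6000 bases and 92.9% from 9000 bases on. Over 7 classes from below 1000 to above 9000 bases, the median stage ratio of wild type went from 0.796 to 2.86, that of Cmi depletion from 1.23 to 1.67, and that of the Trr-labelled libraries from 0.975 to 1.499. The median ratio to wild type at blue gut went from 0.870 to 1.70 for Cmi depletion and between 1.03 and 1.57 for the Trr-labelled library. At clear gut the median ratio to wild type fell over the same classes, from 1.14 to 1.01 for Cmi depletion. For the Trr-labelled library it fell from 1.19 to 0.870, so clear gut ratios to wild type moved with length as well. Stage, genotype and the length profiles of the wild-type libraries cannot be told apart in this design.

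Genes of the same length class were set beside the members. In the wild-type stage ratio 1 of 7 members, para, lay above the upper quartile of its class and 0 below the lower quartile. For elav and Appl the wild-type stage ratio of 3.29 and 2.997 stood beside class medians of 2.86 and 2.44, above 63.9% and 73.3% of the class. In the Trr-labelled libraries it stood above 78.1% and 81.0%. For brp and Csp the wild-type ratio stood above 61.7% and 72.2% of the class, and in the Trr-labelled libraries above 59.6% and 54.3%. For futsch and Syn the wild-type ratio lay below the class median, above 45.4% and 43.6% of the class. In Cmi depletion it stood above only 19.7% and 15.3%, and in the Trr-labelled libraries above 13.7% and 39.2%. The stage ratio of para stood above 98.4% of its class in wild type, on 3 reads at blue gut. In Cmi depletion and the Trr-labelled libraries it stood above 15.3% and 14.8%. Against wild type at blue gut, 6 of 7 members lay above the upper quartile of their class in Cmi depletion, all but elav, and 5 of 7 in the Trr-labelled library, all but elav and Appl. Of these, brp, Syn and Csp had ratios to wild type above 96.2%, 93.6% and 92.0% of their classes in Cmi depletion. In the Trr-labelled library the ratios of brp, Syn and Csp stood above 93.4%, 94.7% and 78.6%. Both sets of ratios rest on the same wild-type blue gut library. The ratio of para at blue gut exceeded that of each of the 183 class genes in both depletions, as far as 3 reads allow to measure it. Like futsch, para is expressed below the level of the genes in the class.

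**Figure D4:**
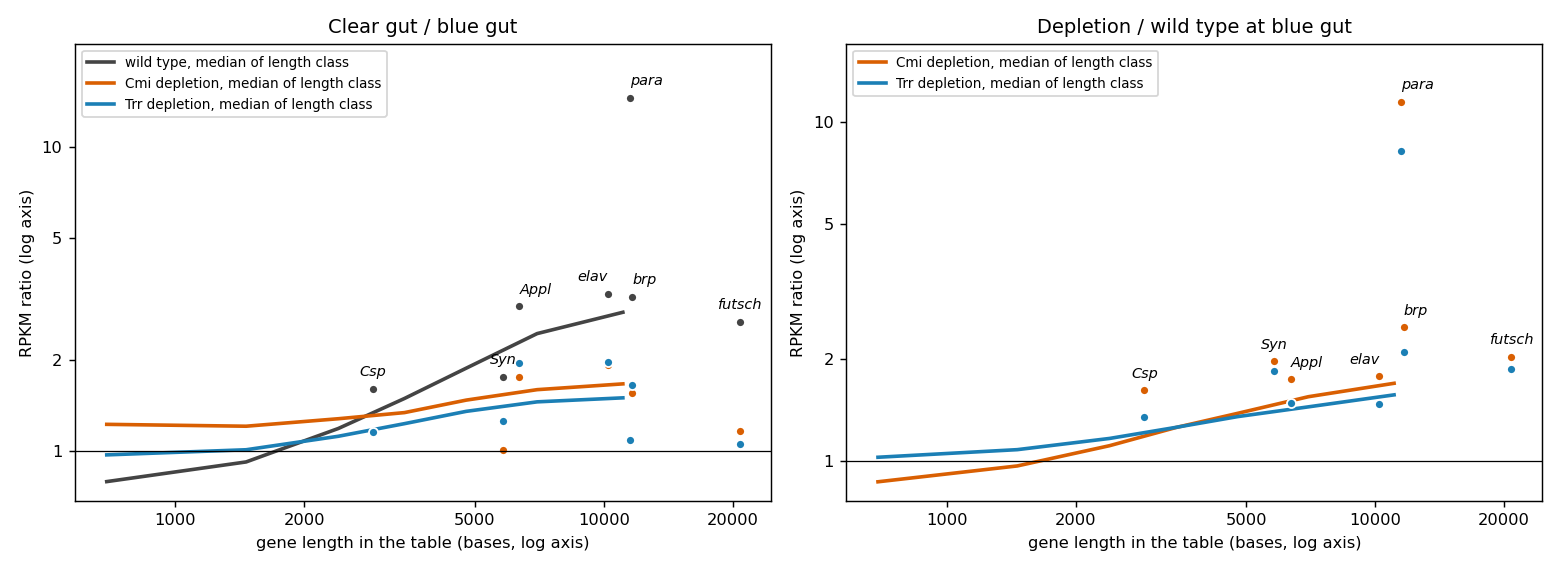
RPKM ratios (log axis) against the gene length of the table (log axis), as clear to blue gut within each genotype (left) and as depletion to wild type at blue gut (right). Lines join the medians of 7 length classes of tested genes that are no members and points are the 7 members, named at the wild-type point (left) or the Cmi depletion point (right). The wild-type line climbs from 0.796 to 2.86, and 6 of 7 wild-type points lie between the quartiles of their class, with para far above. On the right 6 of 7 orange points and 5 of 7 blue points lie above the upper quartile of their class, which is not drawn.

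When the trend of each library over gene length was removed before the fit, a setting chosen after seeing the data, the 3 stage calls ended. The log2 change of elav became 0.27 (limma adjusted p = 0.109), that of Appl 0.39 (adjusted p = 0.0608) and that of brp -0.18 (adjusted p = 0.334). Syn turned to -0.38 (adjusted p = 0.108). The members at an unadjusted p below 0.05 were elav and Appl, which were higher at clear gut, and Syn, which was lower. The share of all tested genes at that unadjusted p in this setting is not given here. On recovered reads with the same correction, limma called futsch lower at clear gut (log2 -0.49, SE 0.12, adjusted p = 0.0482) and none of the others, with elav at 0.30, Appl at 0.36, brp at 0.07, Syn at -0.34 and Csp at 0.01. In these 2 settings 11.8% and 11.6% of all tested genes were called higher and 12.9% and 12.5% lower. In the genotype comparisons 0 members were called in both settings, against 0.061% and 0.0556% of all genes in Cmi depletion and 0.0174% and 0.0318% in the Trr-labelled libraries. The paralog fne kept its call in both (adjusted p = 0.0303 and 0.0157, limma). On recovered reads relative to genes of like length, elav and Appl were lower at blue gut than at clear gut in all 3 genotypes. There futsch and Syn were higher at blue gut in all 3.

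Other genes of the nervous system were counted in lists named by function, to place the 7 genes among them. Limma called genes of these lists for the stage only and 0 in either depletion. Over all tested genes it called 24.2% higher and 11.1% lower at clear gut (median log2 0.15). Of 28 genes of vesicle release found in the table, 25 were tested and limma called 8 higher and 0 lower (median log2 0.47). The kinesin gene unc-104, which carries vesicle precursors, had 3.79 RPKM at blue gut and 12.6 at clear gut in wild type (log2 1.19, adjusted p = 0.00963, limma), and unc-13, which primes vesicles, rose by 1.05 on the log2 scale. Of 31 ion channel genes 19 were tested, with 5 higher and 2 lower (median 0.43), close to the shares over all tested genes. Among them Ih (0.99), a channel opened by hyperpolarization, and the cyclic nucleotide-gated channel gene CngA (0.85) rose, and the potassium channel genes Irk3 (-1.60) and Ork1 (-0.97) fell.

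Genes of transmitter synthesis and transport were split, with 2 higher and 2 lower of 7 tested out of 14 (median 0.49). The vesicular monoamine transporter gene Vmat (0.95) and the acetylcholinesterase gene Ace (0.87) rose, and Gad1 (-0.82), which makes GABA, and the GABA transporter gene Gat (-0.78) fell. Of 32 transmitter receptor genes 12 were tested, with 4 higher and 0 lower (median 0.44), led by the nicotinic receptor genes nAChRalpha7 (0.75) and nAChRalpha2 (0.68). Of 33 genes for neuropeptides and their processing 30 were tested, with 1 higher and 6 lower (median -0.09). Here ITP (1.00) rose, and AstC (-1.07) and Dh31 (-0.79) fell. AstC, which encodes allatostatin C, had 6.89 RPKM in wild type, 10.9 in Cmi depletion and 9.32 in the Trr-labelled library at blue gut, then 3.23, 4.12 and 3.81 RPKM at clear gut.

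Genes of axon growth, of RNA binding and transcription, of neuroblasts, glia and the eye disc are in part also used in other tissues. Of 41 genes of axon growth, adhesion and transport 36 were tested, with 26 higher and 0 lower (median 0.92), led by the netrin receptor gene fra (1.62) and the teneurin gene Ten-m (1.58). Of 32 genes of neuronal RNA binding and transcription 29 were tested, with 19 higher and 1 lower (median 0.85), among them mub (2.16) and zfh1 (1.46), with fru (-1.18) as the lower gene. Neuroblast genes had 8 of 19 tested higher and 0 lower (median 0.49), led by brat (1.997) and insc (1.45). Glial genes had 7 of 17 higher and 2 lower (median 0.27), with Gs2 (1.36) and loco (1.29) higher and the glutamate transporter gene Eaat1 (-1.95) and Gat lower. Genes of the eye disc and photoreceptors had 10 of 21 higher and 0 lower (median 0.58), led by salm (0.91) and pros (0.90). Outside the nervous system, imaginal disc genes had 17 of 21 higher and 0 lower (median 0.80), and 9 higher and 0 lower with the length trend removed. All these are limma calls over 11467 genes, of which 2777 were higher and 1275 lower (median 0.15).

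These lists also differ in gene length, and their calls moved with it. The median length of tested genes was 6445.5 bases for the axon list, 6742 for RNA binding and transcription, 4427 for vesicle release and 1254.5 for neuropeptides, against 1783 for all tested genes. With the length trend removed, limma called 10 higher and 3 lower in the axon list, 9 and 3 in RNA binding and transcription, 3 and 1 in vesicle release, and 5 and 1 in neuroblasts. It called 0 and 3 in ion channels, 0 and 2 in transmitter enzymes, 0 and 1 in receptors, 0 and 5 in neuropeptides, 3 and 4 in glia and 1 and 0 in the eye disc list. Of the named genes, those whose call ended were unc-13, Ih, CngA, Vmat, Ace, nAChRalpha7, nAChRalpha2, ITP, salm and pros. Those of Ih, Ace, nAChRalpha7, nAChRalpha2, ITP and pros also ended with median-ratio scaling.

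**Figure D5:**
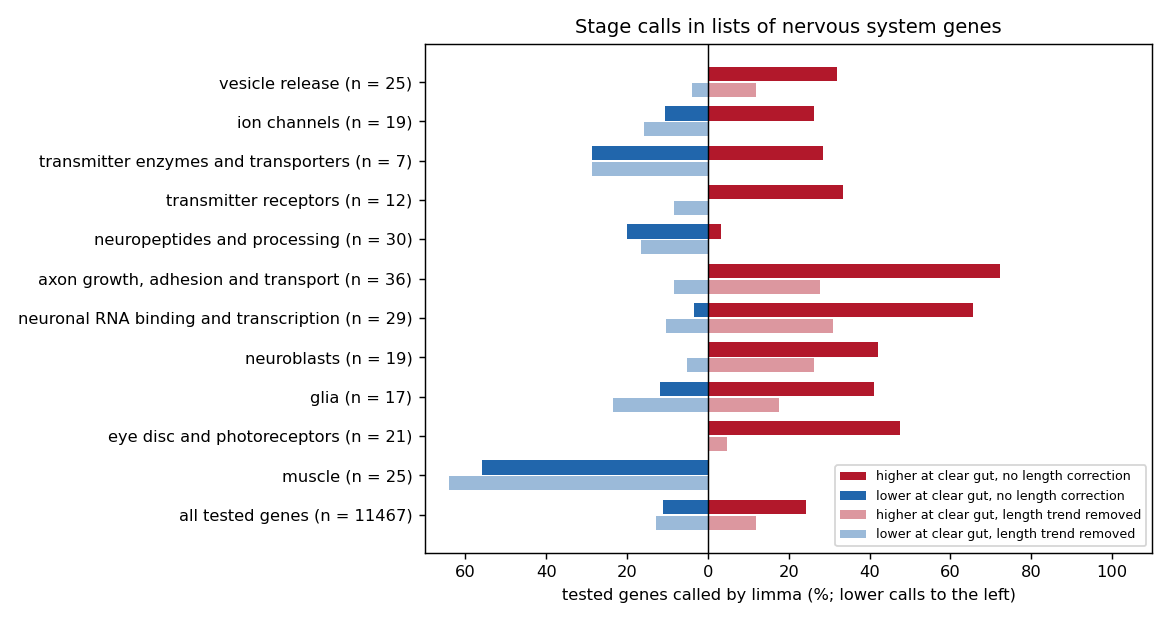
Share of tested genes that limma called higher (red, right) or lower (blue, left) at clear gut in lists of nervous system genes, in the muscle list and in all tested genes, in percent, without (dark) and with (pale) removal of the trend over gene length. Higher calls shrink in every nervous system list when the trend is removed, from 26 to 10 of 36 in the axon list, and lower calls of muscle genes do not (14 and 16 of 25).

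The members resembled each other across the 6 libraries, with Pearson correlations of log2(RPKM + 1) from 0.715 (elav and Syn) to 0.996 (elav and Appl) over the 21 pairs (median 0.877). The next closest pair was futsch and para (0.987). The genes outside the set most like the members' mean course were eIF4G (0.998), which encodes a translation initiation factor, Hip14 (0.998), a palmitoyltransferase gene, sqd (0.997), which encodes an RNA-binding protein, pigs (0.997) and RhoGAP1A (0.997). These 5 genes are 3910 to 6335 bases long. A correlation of at least 0.9 was reached by 1714 of 11462 tested genes outside the set, by 15 of 25 vesicle release genes, 21 of 36 axon genes and 11 of 21 imaginal disc genes, but by 2 of 30 neuropeptide genes. With 6 libraries that share their stage, their genotype and length profiles, these values are a description.

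Markers of several other cell types in the larva moved between the stages as well, but not those of all. The summed level of 29 muscle genes was 2722 to 3453 RPKM at blue gut and 295 to 1207 at clear gut. That of 25 midgut genes was 47253 to 55753 and 4912 to 7640 RPKM, and that of 12 fat body genes 48064 to 56666 and 30079 to 37299. That of the 7 neuronal genes was 51.6 to 86.2 RPKM at blue gut and 97.8 to 113 at clear gut, and without Csp, its most abundant member, 13.2 to 24.2 and 37.8 to 40.9. The sum of 18 glial genes was 440 to 569 and 841 to 947 RPKM, but Gs2, singled out after its values were seen, carries most of that difference. Without it the other 17 summed to 212, 299 and 282 RPKM at blue gut in wild type, Cmi depletion and the Trr-labelled library, then to 279, 261 and 281 RPKM. The sum of 21 imaginal disc genes was 148 to 203 and 317 to 360 RPKM, and that of 12 blood cell genes 428 to 884 and 212 to 427. For 21 genes of epidermis and cuticle the stages overlapped, at 4760 to 7273.5 and 5358 to 8544 RPKM. They also overlapped for 9 salivary gland genes, at 6241 to 23438 and 3174 to 18141 RPKM. No marker of any list was at 0 in all libraries. RPKM values share a fixed total per library, so lower midgut and fat body levels and higher levels of other genes are not independent, and the part of this in the neuronal values was not tested.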

How the data were processed

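The deposited table gives RPKM per gene, computed by the authors from reads, together with the gene length used. Per the labels' protocols, RNA was selected with oligo dT and SOAPaligner/SOAP2 aligned the reads left after filtering. Bowtie and dm6 are named in the submitters' processing notes, and the counting tool is not given in the sources used here. A dash was read as 0. Reads were recovered at the depth at which 84.3% to 85.2% of the judged values lay within 0.1 of a whole read. Coordinates and overlaps come from the Ensembl annotation of dm6, and list symbols were matched through the RefSeq table.

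Limma 3.58.1 (R 4.3.3, statmod 1.5.0) was fitted to log2(RPKM + 1) of 11467 genes whose mean reached 1 RPKM, with additive genotype and stage, eBayes with trend and robust, two-sided tests and Benjamini-Hochberg adjustment at 0.05. It leaves 2 residual degrees of freedom, which measure how genotype effects differ between stages, not the spread between pools. The fit was checked on simulated data with independent noise and no trend over gene length. That check therefore does not bear on the length profiles of these libraries.

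The members and gene lists were chosen with earlier results of these data known. Named are all members, the paralogs of elav, the 2 called genes of largest stage change per nervous system list and direction, any called for a genotype, and the 5 genes most like the members. Some genes appear in several lists. Alternatives were another pseudocount, other filters, scalings and eBayes settings, each library left out, recovered reads (prior 0.5, mean of at least 10 reads, 12594 genes) and removal of a lowess trend (span 0.3) over log10 gene length.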

Additional observations from a re-analysis of the deposited data

Results flagged for a closer look

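In elav and futsch the Trr-labelled library lay above wild type at blue gut and below it at clear gut, with counting intervals on opposite sides of 1. For elav the ratio was 1.48 at blue gut and 0.883 at clear gut, and for futsch 1.87 and 0.743. The difference between the stages was not tested, since each group has 1 library. In their length class of 183 genes the median ratio was 1.57 at blue gut and 0.870 at clear gut.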

How the results depend on the processing

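The count of members called higher at clear gut (3 of 5 tested) became 0 with the length trend removed, on RPKM and on recovered reads, where 1 was called lower. Leaving out 1 library gave 0 to 3, with 0 without either wild-type library and 2 without either library labelled Trr depletion. It was 2 with a pseudocount of 0.1, with no filter, with a filter at 5 RPKM, under quantile normalization and under median-ratio scaling. The shares of all tested genes called in these fits, and in those without 1 library, are not given here. These changes in count are thus not a result about the members. Genotype counts stayed at 0 in every setting. Signs turned for the stage in brp (-0.18) and Syn (-0.38 on RPKM, -0.34 on reads) with the length trend removed. For Trr depletion against wild type, elav turned to -0.0052 with median-ratio scaling, -0.017 with quantile normalization, -0.17 without wild type at blue gut (0.45 without it at clear gut), -0.0078 without the blue gut library labelled Trr depletion, and -0.030 and -0.068 with the length trend removed on RPKM and reads. In the same comparison Appl (-0.080) and Csp (-0.039) turned without wild type at blue gut (0.55 and 0.42 without it at clear gut), and Csp (-0.010) on reads with the length trend removed. For Trr against Cmi depletion, Appl (0.062) and brp (0.0064) turned without the blue gut library of Cmi depletion (-0.35 and -0.28 without its clear gut library), Syn (-0.13) turned without its clear gut library (0.23 without its blue gut library), and Syn (-0.043) with quantile normalization. The cause of these turns was not tested. Of 292 values of single members under alternatives, 259 kept direction and side of the threshold. These include the genotype comparisons and the stage values of Syn and Csp, which the main fit did not call. The pooled count therefore does not describe how stable the 3 stage calls are. No paired analysis was possible because the labels give no replicate numbers and each group has 1 library; the additive fit already compares the stages within genotypes. Depth limits para most, at 3 to 44 reads.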

Other observations

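Of the protein-coding neighbours that share exon bases with members, arg and Timp had courses of their own. No value is given here for the noncoding gene lncRNA:enrr, which overlaps elav on the same strand. The gene arg, which encodes arginase and overlaps elav on the opposite strand, had 11.4 RPKM in wild type, 8.16 in Cmi depletion and 6.69 in the Trr-labelled library at blue gut, and 1.203, 0.664 and 0.768 RPKM at clear gut. Its values thus went down where those of elav went up. Timp, which encodes an inhibitor of matrix metalloproteinases and overlaps Syn, had 10.2, 13.1 and 10.2 RPKM in the same order at blue gut, then 11.9, 9.79 and 13.4 RPKM at clear gut. Gr2a, a taste receptor gene that overlaps futsch on the same strand, stood at 0 to 0.067 RPKM in all libraries, too low to show a course.

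Rbp9, a paralog of elav, had its lowest value of the 6 libraries in Cmi depletion at clear gut, at 1.75 RPKM, and its ratio of the Trr-labelled library to Cmi depletion there was 3.72 (3.27 to 4.23). The limma fit called it in no comparison.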
